A study of Mus musculus with 10 samples.

Results

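Collagens are the proteins whose chains, each carrying a repeat with a glycine at regular steps, wind into a triple helix. The collagen genes were taken as all mouse protein-coding genes named for a collagen alpha chain, which gave 44 of the 21695 protein-coding genes in the tables (48709 genes in all). The 44 genes encode the chains of 27 collagen types in 9 structural classes. Fibrillar collagens form the banded fibrils of connective tissue and cartilage, FACIT collagens sit on the surface of such fibrils, and type IV collagen forms the network of basement membranes, the sheets on which epithelia rest. In the inner ear, types II, IX and XI are known from the acellular matrices that cover the sensory epithelia and from the cartilage of the capsule, and mutations in their genes cause deafness.

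The libraries came from supporting cells, the non-sensory cells of the vestibular epithelium of the utricle, sorted from mice at age P21 by the fluorescence of a Lfng-EGFP transgene to select cells that express the reporter. Utricles were cultured for 5 days with 10 µM TRULI, an inhibitor of the Lats kinases that restrain the co-activator Yap, in 0.1% DMSO, or with 0.1% DMSO alone, and some then had 5 days of recovery without the compound. The comparison at 5 days asks what the compound does while present, and the comparison after withdrawal asks what remains. By their labels there were 3 DMSO and 3 TRULI libraries at 5 days and 2 DMSO and 2 TRULI libraries after withdrawal.

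For 4 of the 10 libraries the label and the name under which the values were deposited give different conditions, and no file records which is right. The 6 libraries on which both agree are control libraries 1 to 3 (DMSO, 5 days), library T (TRULI, 5 days) and withdrawal libraries 1 and 2 (TRULI, then recovery). Libraries P and Q are labelled TRULI at 5 days but named DMSO after withdrawal, and libraries R and S are labelled DMSO after withdrawal but named TRULI at 5 days. Library pairs were compared gene by gene with a chi-square scaled by its degrees of freedom, in which a larger value means less alike. T gave 15.3 with R, 26.0 with S, 147 with P and 128 with Q, against 18.0 to 22.3 among the control libraries. R gave 29.8 with S, P gave 41.2 with Q, and the withdrawal libraries gave 50.5 with each other. By this measure T was closer to R and S than to P and Q. The value grows with the number of counts and includes mitochondrial ribosomal RNA, whose share differed between these libraries, as given below. Each comparison is given by label and by deposited name. Total expected counts were 2463872, 3411616 and 3852501 in the control libraries, 3565654 in T, 3918989 and 4235355 in R and S, 6255149 and 3115752 in P and Q, and 5404033 and 5236704 in the withdrawal libraries.

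The libraries also stood apart in the RNA they held. The mitochondrial ribosomal RNA mt-Rnr2 took 16.8%, 26.4% and 16.2% of counts in the control libraries, 18.4% in T, 23.7% and 13.02% in R and S, 1.99% and 2.53% in P and Q, and 1.45% and 2.50% in the withdrawal libraries. Lfng, the gene whose reporter was sorted for, was measured at 338, 310.0 and 319 FPKM in the control libraries, 203 in T, 374 and 182 in R and S, 33.3 and 9.60 in P and Q, and 53.5 and 31.7 in the withdrawal libraries. FPKM here is the expected count divided by the effective length and by the total over protein-coding genes. Libraries P, Q and withdrawal 1 and 2 were thus low in both measures, and the other 6 were high. By label this split divides the TRULI group at 5 days (T high, P and Q low) and separates the DMSO from the TRULI libraries after withdrawal. By deposited name it separates the 5-day libraries from those after withdrawal and divides no group. All 8 supporting-cell markers had a mean above 1 FPKM, Slc1a3 the highest at 541 FPKM, and their summed level was 1679.9, 1874 and 2251 FPKM in the control libraries, 1489 in T, 2759 and 2379 in R and S, 919.9 and 692 in P and Q, and 793 and 878 in the withdrawal libraries. The RNA is from bulk samples, in which fewer cells of a type and less RNA per cell cannot be told apart.

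Of the 44 collagen genes, 8 had a mean over the 10 libraries of at least 10 FPKM, 13 more had at least 1 FPKM, and 23 were below 1 FPKM. Expected counts were above 0 in every library for 18 genes, did not pass 3 in any library for 9, and were 0 in all 10 libraries for Col6a5 and Col6a6. The 8 genes at or above 10 FPKM were Col16a1, Col9a2, Col2a1, Col9a1, Col11a1, Col18a1, Col4a5 and Col6a1, of which Col4a5 falls from 13.5 to 6.85 FPKM with the length of its longest coding transcript. Summed over all 44 genes, collagen levels were 484, 538 and 864 FPKM in the control libraries, 416 in T, 485 and 602 in R and S, 458 and 318 in P and Q, and 389.7 and 380.0 in the withdrawal libraries. The plot of all members by class shows that 5 of these 8 genes belong to types II, IX, XI and XVI.

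**Figure D1:**
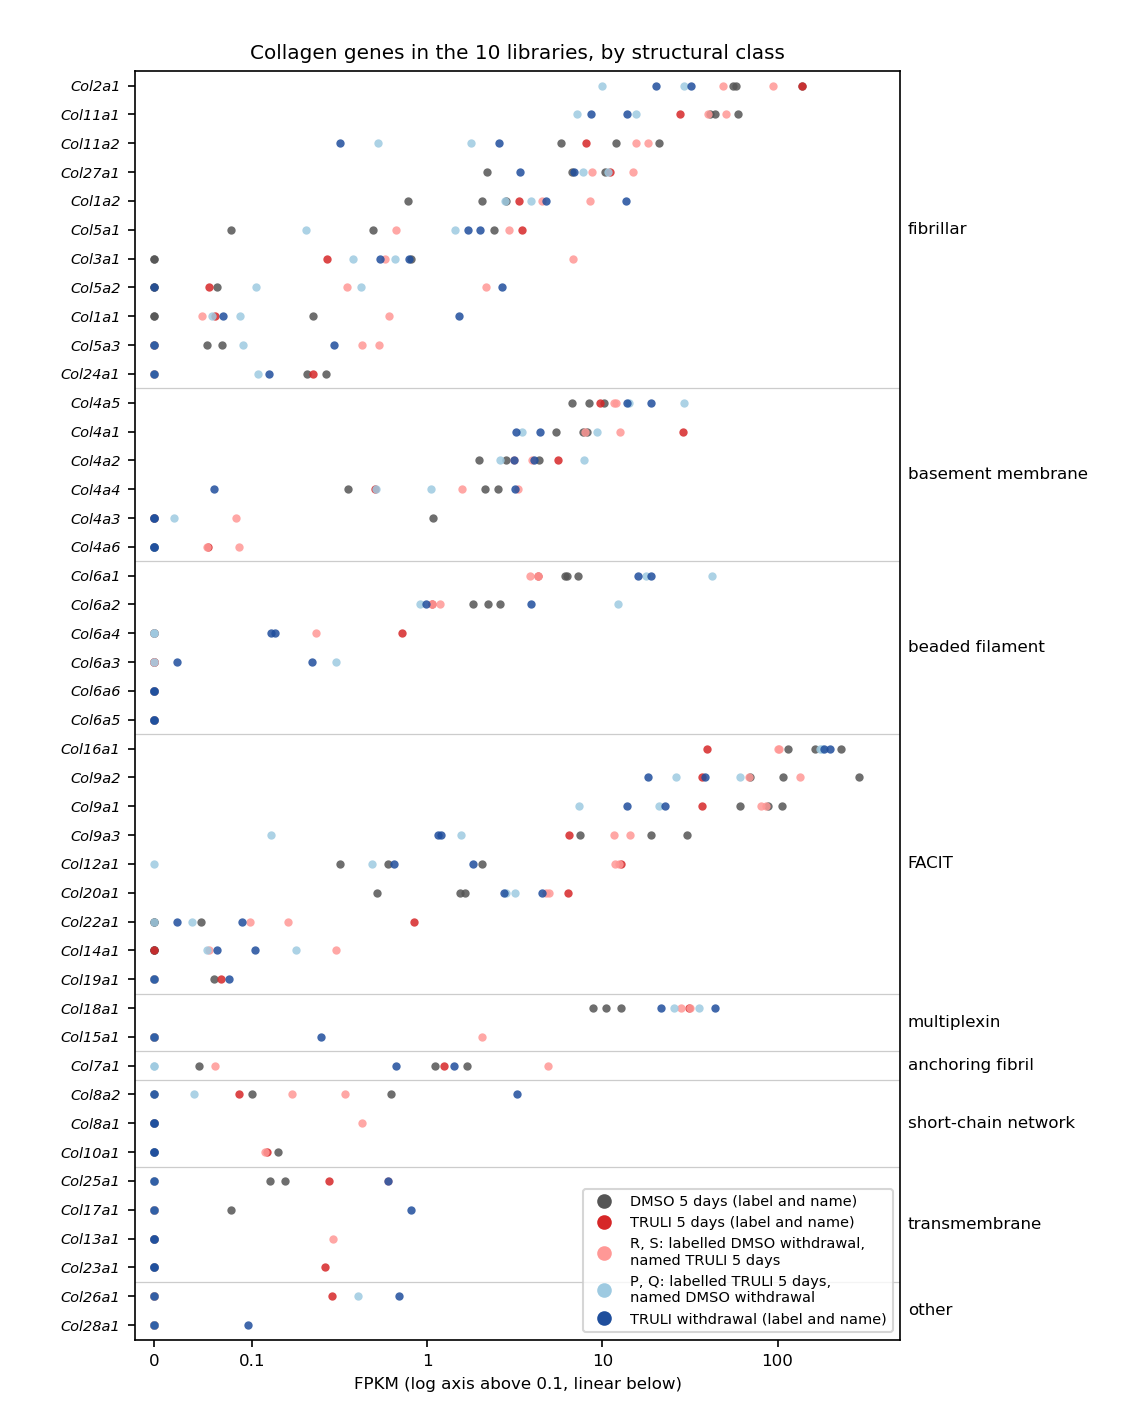
FPKM of each of the 44 collagen genes (1 point per library, log axis above 0.1 FPKM and linear below), grouped by structural class and coloured by label and deposited name. The FACIT and fibrillar classes hold the highest levels, up to 293 FPKM for Col9a2, and most chains of the short-chain, transmembrane and other classes lie below 1 FPKM.

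Type IX collagen, a FACIT collagen of 3 chains that decorates type II fibrils, was present with all its chains. Col9a1, described here by a choice made after its values were seen (ENSMUSG00000026147, chr1:24177610-24252684, GRCm38), has a pair of annotated promoters, the upstream one known for the long form of cartilage and the downstream one for the short form that lacks the large amino-terminal domain. The gene length that the table lists for Col9a1, which follows the transcript models that counts were assigned to, was exactly 3059 bases in both withdrawal libraries, the length of the annotated model that begins at the downstream start, and lay between 2940 and 3105 bases over the 10 libraries, below the 3834 bases of the upstream model. This is 1 length per gene and library, and shorter models of 898 and 806 bases are also annotated, so the share of counts from each form was not measured. The window of the downstream start (chr1:24194953-24195252, plus strand, RefSeq, GRCm38.p6) is shown because the listed lengths lie near that of the downstream model.
Col9a1 downstream window: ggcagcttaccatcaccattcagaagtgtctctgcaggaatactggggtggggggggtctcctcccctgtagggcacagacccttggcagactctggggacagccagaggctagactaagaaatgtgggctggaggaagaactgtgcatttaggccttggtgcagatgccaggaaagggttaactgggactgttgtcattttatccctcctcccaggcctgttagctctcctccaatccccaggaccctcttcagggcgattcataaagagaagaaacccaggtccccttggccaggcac
It has no capitals because the motif searched, GGAATG on either strand, the core of the sites that the Tead partners of Yap bind, is not among its letters.

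In the control libraries Col9a1 was measured at 60.7, 88.6 and 106 FPKM, in T at 36.9, in R and S at 80.1 and 86.0, in P and Q at 21.01 and 7.39, and in the withdrawal libraries at 22.8 and 13.8 FPKM. The 4 libraries low in mt-Rnr2 held the 4 lowest levels, and the DMSO and TRULI groups overlapped at 5 days by name but not by label. Col9a2 was measured at 69.4, 107 and 293 FPKM in the control libraries, 36.9 in T, 68.3 and 134 in R and S, 61.3 and 26.2 in P and Q, and 38.4 and 18.2 in the withdrawal libraries. Control library 3 was the highest of the 10. At 5 days the DMSO and TRULI groups overlapped by name, while by label the 3 TRULI values in FPKM were below the controls but overlapped in TMM-normalised counts. Col9a3 (ENSMUSG00000027570, chr2:180597790-180622189) was measured at 7.43, 18.8 and 30.5 FPKM in the control libraries, 6.47 in T, 11.7 and 14.3 in R and S, 1.56 and 0.129 in P and Q, and 1.20 and 1.15 in the withdrawal libraries. All 4 libraries low in mt-Rnr2 lay under 2 FPKM and the other 6 above 6 FPKM.

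Types II and XI are the fibrillar partners of type IX and copolymerise into thin fibrils. Col2a1 was measured at 138, 55.5 and 57.8 FPKM in the control libraries, 138 in T, 49.2 and 94.5 in R and S, 29.5 and 9.90 in P and Q, and 32.0 and 20.2 in the withdrawal libraries. Control library 1 and T were the highest, so the 5-day groups overlapped in both groupings. Col11a1 was measured at 41.2, 43.8 and 59.7 FPKM in the control libraries, 27.8 in T, 40.0 and 50.8 in R and S, 15.6 and 7.21 in P and Q, and 13.8 and 8.58 in the withdrawal libraries. Col11a2, the second type XI chain and also chosen after its values were seen, followed with 5.84, 12.0 and 21.1 FPKM in the control libraries, 8.08 in T, 15.6 and 18.3 in R and S, 1.78 and 0.522 in P and Q, and 2.58 and 0.317 in the withdrawal libraries. For both chains the 4 libraries low in mt-Rnr2 were below all 6 others.

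Together the 6 genes of types II, IX and XI summed to 322, 326 and 569 FPKM in the control libraries, 254 in T, 265 and 398 in R and S, 131 and 51.3 in P and Q, and 111 and 62.3 in the withdrawal libraries. Their share of all collagen FPKM was 66.6%, 60.5% and 65.8% in the control libraries, 61.0% in T and 54.6% and 66.1% in R and S. It was 28.5% and 16.2% in P and Q and 28.4% and 16.4% in the withdrawal libraries. These shares depend on Col16a1, whose level rests on the transcript length used. Without it they were 87.3%, 87.0% and 89.7% in the control libraries, 67.3% in T, 69.1% and 79.2% in R and S, 47.0% and 35.8% in P and Q, and 53.7% and 34.5% in the withdrawal libraries, again lowest in the last 4. The plot of summed levels sets this beside the supporting-cell markers, whose sum was likewise lowest in those 4 libraries. Of the single markers, Lfng, Slc1a3, Otoa and Sox2 were each lowest there. Hes1 and Gjb6 were instead lowest in T, at 34.5 and 145 FPKM, and Gjb2 and Jag1 did not separate those libraries from the others. The part of the supporting-cell markers and of mt-Rnr2 in these levels was not tested. Of the 5 chondrocyte markers, none reached a mean of 1 FPKM, Comp was at 0 in every library, the most abundant was Matn1 at 0.411 FPKM, and the sum was 0, 0.0850 and 0 FPKM in the control libraries, 0.201 in T, 1.52 and 2.75 in R and S, 0 and 0 in P and Q, and 0.0692 and 0 in the withdrawal libraries.

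**Figure D2:**
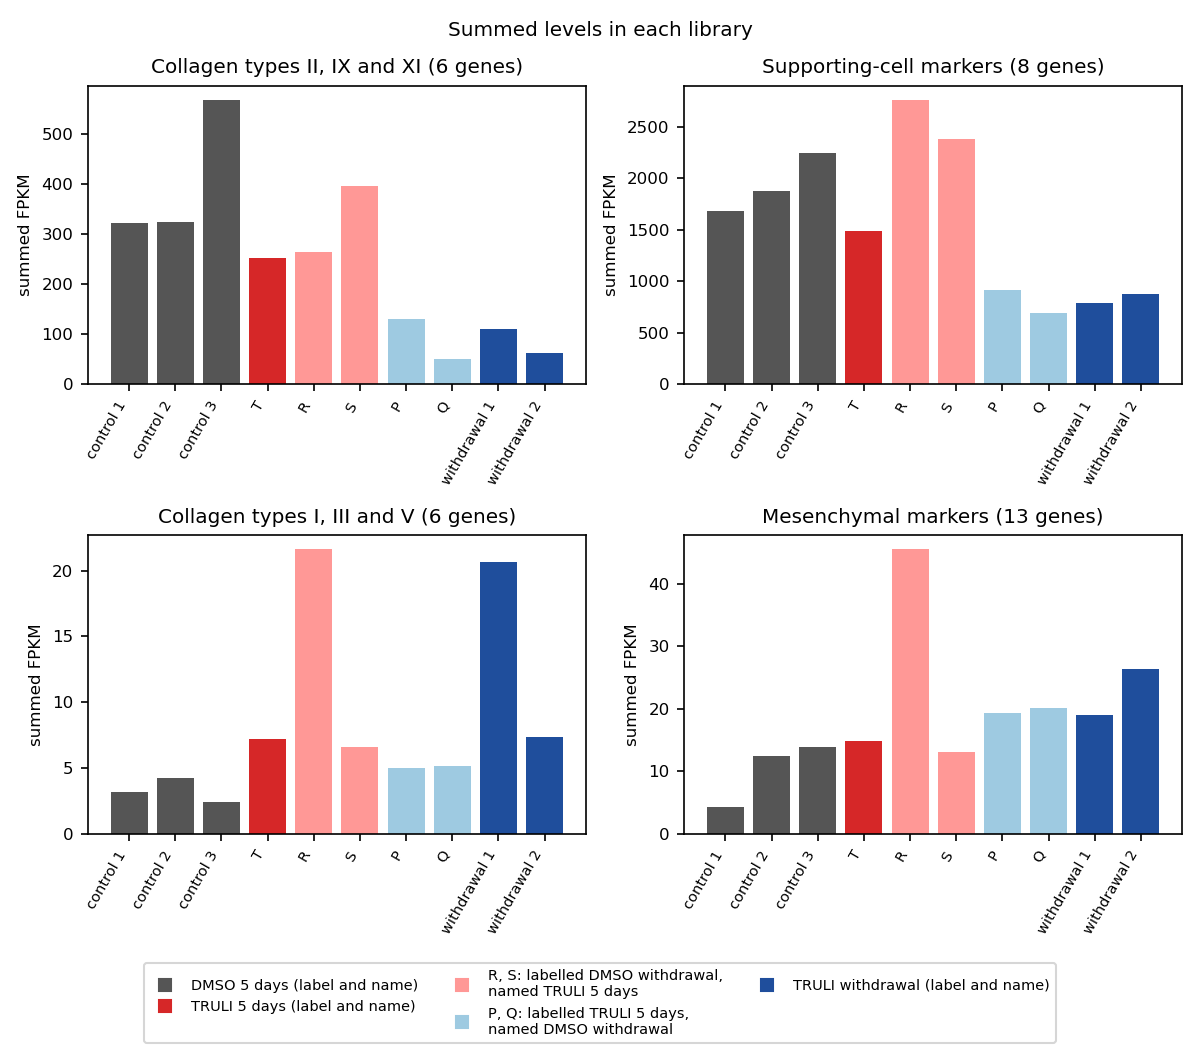
Summed FPKM in each of the 10 libraries (1 bar each) of collagen types II, IX and XI, of 8 supporting-cell markers, of collagen types I, III and V and of 13 mesenchymal markers. Types II, IX and XI lie at 51.3 to 131 FPKM in P, Q and the withdrawal libraries and at 254 to 569 FPKM in the other 6. The sums of types I, III and V and of mesenchymal markers are both highest in R, at 21.6 and 45.5 FPKM. For types I, III and V, the rank of R above withdrawal library 1 (20.7 FPKM) rests on the short lengths listed for Col3a1 and Col5a1 in R.

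The other FACIT collagens differed from type IX. Col16a1, whose chain is found in several fibril networks, had the highest mean of all collagen genes, 149 FPKM, with 115, 164 and 229.9 FPKM in the control libraries, 39.5 in T, 102 and 100.02 in R and S, 180.1 and 174 in P and Q, and 183 and 199.6 in the withdrawal libraries. T, R and S were the lowest of the 10 libraries, and the 5-day groups did not overlap by name. This rank rests on the length used, since the table lists 860 to 1005 bases against 5206 bases for the longest coding transcript. With the longest length the mean was 19.7 FPKM. Col20a1, a FACIT chain chosen for mention after its values were seen, lay between 0.518 and 6.37 FPKM, with the control libraries as the 3 lowest. Its listed length was 4189 bases in the control libraries and 1247 to 2467 in the others, so this order rests on the length used. Col14a1, Col19a1 and Col22a1 stayed below 1 FPKM in every library.

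Col12a1, the FACIT chain of tendon, ligament and other tissues under tension, divided the libraries in another way. Its gene (ENSMUSG00000032332) lies at chr9:79598991-79718831. Expected counts were 1, 4 and 26 in the control libraries, 192 in T, 158 and 241 in R and S, 7 and 0 in P and Q, and 12 and 7 in the withdrawal libraries. In FPKM these were 0.320, 0.602 and 2.06 in the control libraries, 12.8 in T, 11.9 and 12.4 in R and S, 0.484 and 0 in P and Q, and 1.84 and 0.646 in the withdrawal libraries. Libraries T, R and S were high and the other 7 low, with a gap between 2.06 and 11.9 FPKM. By name the 3 high libraries are the whole TRULI group at 5 days. By label they are 1 TRULI library at 5 days and both DMSO libraries after withdrawal. The 0 in Q allows up to 3 counts, which for this gene is 0.154 to 0.960 FPKM over the 10 libraries.

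Among basement-membrane collagens, Col4a1 and Col4a2 encode the chains of the common type IV network and share 1 bidirectional promoter region. Their gene models overlap at the 5′ ends (Col4a2 begins at 11312805, Col4a1 at 11312826 on the other strand), and their promoter windows share 78 bases (chr8:11312777-11312854, plus strand, RefSeq, GRCm38.p6), shown because both members would be read from it.
Col4a1 and Col4a2 shared stretch: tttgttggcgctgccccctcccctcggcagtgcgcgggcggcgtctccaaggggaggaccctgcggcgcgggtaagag
The motif GGAATG is not in it on either strand, nor in the rest of the Col4a1 or Col4a2 window. The other type IV genes also lie head to head, Col4a4 and Col4a3 with 71 bases between them and Col4a6 and Col4a5 with 1308.

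Col4a1 (ENSMUSG00000031502, chr8:11198423-11312826) was measured at 7.75, 5.46 and 8.16 FPKM in the control libraries, 29.0 in T, 12.6 and 7.98 in R and S, 9.34 and 3.49 in P and Q, and 3.23 and 4.43 in the withdrawal libraries. T stood alone at the top. Col4a2 was measured at 4.34, 1.98 and 2.83 FPKM in the control libraries, 5.61 in T, 3.12 and 3.96 in R and S, 7.90 and 2.60 in P and Q, and 4.06 and 3.13 in the withdrawal libraries. Its highest value was in P, and the 5-day groups overlapped in both groupings. Col4a5, a chain of the type IV network of specialised epithelial basement membranes, was measured at 6.69, 8.37 and 10.2 FPKM in the control libraries, 9.67 in T, 11.6 and 12.0 in R and S, 29.4 and 14.2 in P and Q, and 13.9 and 19.0 in the withdrawal libraries. Libraries P, Q and withdrawal 1 and 2 were the 4 highest for Col4a5. Its partner chains were low, with Col4a4 between 0.0609 and 3.29 FPKM, Col4a3 at 0 in 7 libraries and at most 1.08 FPKM, and Col4a6 at 0 in 7 libraries and at most 0.0872 FPKM.

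Col18a1 (ENSMUSG00000001435, chr10:77052178-77166548) encodes the multiplexin of basement membranes, the source of endostatin. The gene has a pair of annotated promoters, of which the upstream one is known to give the short form of most basement membranes. The length listed for Col18a1 was 5063 bases in all 10 libraries, which is the length of the annotated model that begins at the upstream start, while models of 5595 and 4791 bases begin at the downstream start. Both windows are shown because the counts were assigned to 1 of them and the searched motif is in the other (RefSeq, GRCm38.p6, minus strand, chr10:77166481-77166780 upstream and chr10:77113656-77113955 downstream). Capitals mark GGAATG or its reverse complement.
Col18a1 upstream window: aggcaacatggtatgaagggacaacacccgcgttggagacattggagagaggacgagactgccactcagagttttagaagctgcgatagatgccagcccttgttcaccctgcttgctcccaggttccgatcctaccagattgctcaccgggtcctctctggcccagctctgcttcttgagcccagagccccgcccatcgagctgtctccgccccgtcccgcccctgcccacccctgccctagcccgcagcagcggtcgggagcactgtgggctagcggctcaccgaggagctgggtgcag
Col18a1 downstream window: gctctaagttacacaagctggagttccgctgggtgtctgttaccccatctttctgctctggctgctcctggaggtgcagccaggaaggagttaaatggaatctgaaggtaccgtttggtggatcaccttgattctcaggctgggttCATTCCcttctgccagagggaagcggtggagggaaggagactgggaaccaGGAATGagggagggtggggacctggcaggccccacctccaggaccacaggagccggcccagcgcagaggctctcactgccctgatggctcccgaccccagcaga
The motif begins at positions 147 and 197 of the downstream window, counted from 1 at its 5′ end, and is not in the upstream window. Over all promoters, 14.7% of 32851 windows and 16.6% of 27025 genes held it, against 5 of 38 collagen windows (13.2%) and 5 of 35 collagen genes with a window (14.3%), which were Col18a1, Col20a1, Col3a1, Col4a6 and Col6a2. A match of these letters is a description of the window and does not show a bound site.

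Col18a1 was measured at 10.4, 8.82 and 12.8 FPKM in the control libraries, 31.3 in T, 28.3 and 31.8 in R and S, 25.7 and 35.5 in P and Q, and 21.5 and 44.1 in the withdrawal libraries. The 3 control libraries were the lowest, and all 7 others lay above them, whichever grouping is used. Col15a1, the other multiplexin, was at 0 in 8 libraries and reached 2.05 FPKM in R.

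Type VI collagen forms beaded microfilaments around cells. Col6a1 (ENSMUSG00000001119, chr10:76708792-76726168) was measured at 6.32, 6.14 and 7.27 FPKM in the control libraries, 4.32 in T, 3.85 and 4.27 in R and S, 42.4 and 17.8 in P and Q, and 16.1 and 19.0 in the withdrawal libraries. Libraries P, Q and withdrawal 1 and 2 were high, the control libraries were intermediate and T, R and S were lowest. Col6a2, its partner chain, was measured at 1.83, 2.23 and 2.59 FPKM in the control libraries, 1.07 in T, 1.18 and 1.06 in R and S, 12.3 and 0.907 in P and Q, and 0.993 and 3.91 in the withdrawal libraries. P was far above the rest. Col6a3, the last chain of the common trimer, was at 0 in 7 libraries and at most 0.303 FPKM, and Col6a4 reached 0.716 FPKM.

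The major fibrillar chains of connective tissue were low in these epithelial cells. Col1a1 was at most 1.52 FPKM, in withdrawal library 1. Col1a2 was measured at 0.781, 2.80 and 2.06 FPKM in the control libraries, 3.34 in T, 8.55 and 4.53 in R and S, 3.92 and 2.78 in P and Q, and 13.7 and 4.75 in the withdrawal libraries. Col3a1 was 0.805 FPKM or lower in every library but R, where it was 6.82 FPKM. Types I, III and V (6 genes) summed to 3.20, 4.24 and 2.42 FPKM in the control libraries, 7.19 in T, 21.6 and 6.59 in R and S, 5.00 and 5.14 in P and Q, and 20.7 and 7.33 in the withdrawal libraries. R and withdrawal library 1 were the highest. Their order rests on the lengths used. Col3a1 in R came from 19 counts at a listed length of 1198 bases, against 5564 in withdrawal library 1. For Col5a1 the listed length was 3656 bases in R and 8406 in withdrawal library 1.

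Markers of mesenchymal cells, the usual source of these chains, were set beside them. Of the 13 markers 3 had a mean of at least 1 FPKM, Mgp was the most abundant at 6.81 FPKM, Twist2 was at 0 in every library, and Prrx1, Tbx18 and Pou3f4 had at most 1 count in any. Their sum was 4.26, 12.5 and 13.9 FPKM in the control libraries, 14.9 in T, 45.5 and 13.1 in R and S, 19.2 and 20.2 in P and Q, and 19.0 and 26.4 in the withdrawal libraries. Postn made up most of the sum in R, at 28.0 FPKM, and was measured at 11.6 FPKM in P and 11.2 FPKM in withdrawal library 1. The part of such cells in the levels of types I, III and V was not tested.

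The remaining classes were near the limit of detection. Col7a1, the anchoring fibril chain, lay between 0 and 4.90 FPKM, with the highest value in R from 7 counts. The short-chain collagens Col8a1 and Col8a2 were at most 0.427 and 3.28 FPKM, Col8a2 with 67 counts in withdrawal library 2 and at most 8 in any other. Of the transmembrane collagens, Col17a1 had 22 counts in withdrawal library 1 and 1 in control library 2, and Col25a1 was at most 0.5998 FPKM. Col26a1 and Col28a1 were at most 0.695 and 0.0963 FPKM. None of the genes of these 4 classes passed the filter on low counts in any of the 4 comparisons with all their libraries.

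At 5 days by deposited name, TRULI libraries (T, R and S) were compared with the 3 control libraries, and Col12a1 and Col18a1 were higher with TRULI. Mean Col12a1 was 12.3 ± 0.447 FPKM with TRULI and 0.994 ± 0.933 FPKM with DMSO (SD, n = 3 each), and mean Col18a1 was 30.5 ± 1.92 against 10.7 ± 1.98 FPKM (SD, n = 3 each). In the same comparison the mesenchymal marker Postn was called higher (0.345, 0.142 and 0.475 FPKM in the control libraries, 4.05, 28.0 and 1.91 in T, R and S). Epcam was called lower, while the other 3 of 4 epithelial markers were higher with TRULI without overlap but not called. By edgeR, Krt8 and Krt18 had adjusted p of 0.0339 and 0.0445 but stayed under a 2-fold change (log2 0.94 and 0.84). Cdh1 had an edgeR adjusted p of 0.393. DESeq2 called 5 of 7 hair-cell markers, beside 583 of 11529 genes. By edgeR these 5 had log2 fold changes of 1.24 to 1.76. The part of these markers in the collagen levels was not tested. Of the type IX, II and XI genes none was called. A gene was called where its edgeR p, adjusted over all genes tested, was under 0.05 and its fold change above 2 in either direction. Of 19 collagen genes that passed the filter, 2 were called higher and 0 lower, beside 3.07% of 11529 genes called, 2.05% of them higher and 1.02% lower. The other 25 did not pass the filter.

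By edgeR the log2 fold change was 4.004 for Col12a1 (SE 0.59, adjusted p = 0.00703) and 1.46 for Col18a1 (SE 0.22, adjusted p = 0.00799), 12.4-fold and 2.85-fold between group means, with all 3 TRULI libraries above all 3 control libraries for both. Neither gene was called without control library 2 (adjusted p = 0.0584 and 0.0661, the largest over their alternatives, which went down to 7.06e-21 and 5.16e-06). With 1 TRULI library, T, in place of 3, log2 fold changes were 4.07 for Col12a1 and 1.45 for Col18a1 and edgeR adjusted p were 0.0305 and 0.0632, so that Col18a1 was not called without R and S while Col4a1 was. Col18a1 was not called in the edgeR fit of all 10 libraries either (adjusted p = 0.0634), in which Col12a1 was. Libraries of the same deposited number deviated together in this comparison, and with the number as a block 6 of 19 collagen genes were called, beside 698 of 11529 genes. The 4 added, with edgeR log2 fold changes and adjusted p with the block, were Col4a1 (1.05, 0.0126), Col1a2 (1.49, 0.0153), Col16a1 (-1.18, 0.00344) and Col9a2 (-1.07, 0.00162). Without the block these 4 had edgeR log2 fold changes of 1.15, 1.44, -1.14 and -1.09 and adjusted p of 0.109, 0.158, 0.137 and 0.275. Over all alternatives their adjusted p ranged from 0.00259 to 0.328 for Col4a1, 0.0148 to 0.796 for Col1a2, 0.00114 to 0.315 for Col16a1 and 0.00129 to 0.610 for Col9a2. Col4a1 was also called without S, at a log2 fold change of 1.39.

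In TMM-normalised counts, 9 of the 19 collagen genes did not overlap between the groups, 6 higher and 3 lower with TRULI, beside 21.4% of all genes tested. The 6 were Col12a1, Col18a1, Col1a2, Col20a1, Col4a1 and Col5a1, and the 3 were Col16a1, Col6a1 and Col6a2. Col6a1 had an edgeR log2 fold change of -0.71 and an adjusted p of 0.258 (0.156 to 0.639 over its alternatives). The median log2 fold change was 0.12 over the 19 collagen genes and 0.03 over all genes, and by class it was -0.61 for 6 FACIT genes, 0.35 for 6 fibrillar, 0.40 for 4 basement-membrane and -0.88 for 2 type VI genes. The methods call the libraries of a condition biological replicates, but the labels do not state whether libraries of a group came from separate cultures, so the p-values measure the spread between libraries.

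**Figure D3:**
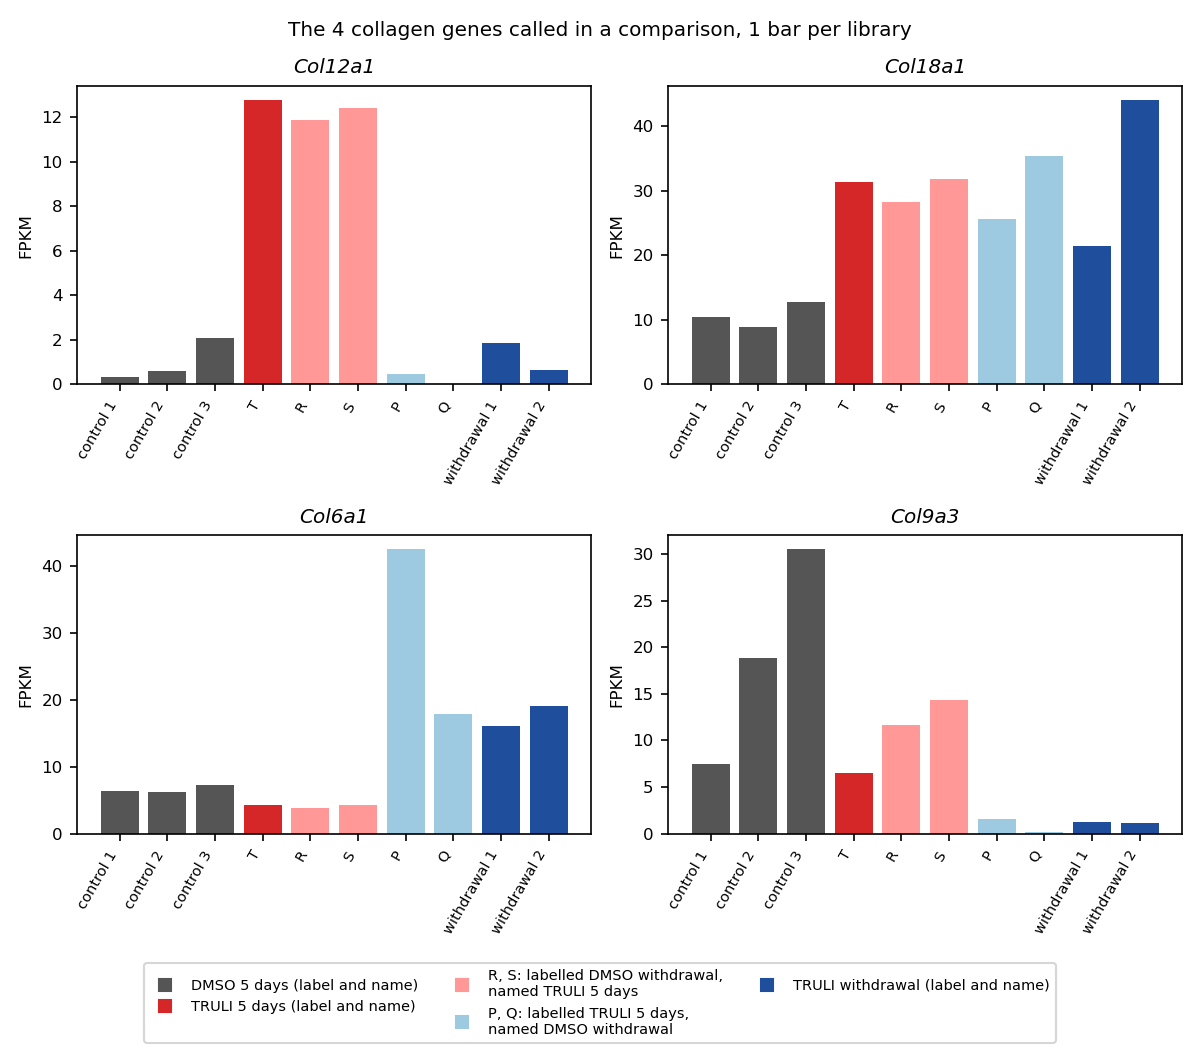
FPKM of Col12a1, Col18a1, Col6a1 and Col9a3 in each library (1 bar each), coloured by label and deposited name. Col12a1 is high in T, R and S only (11.9 to 12.8 FPKM), Col18a1 is low in the 3 control libraries only, and Col6a1 is high and Col9a3 low in P, Q and the withdrawal libraries.

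At 5 days by label, libraries T, P and Q made up the TRULI group, and no collagen gene was called. Col12a1 did not pass the filter on low counts with all 6 libraries, so it was not tested there. Mean Col18a1 was 30.8 ± 4.90 FPKM with TRULI against 10.7 ± 1.98 FPKM (SD, n = 3 each), and mean Col9a1 was 21.8 ± 14.7 against 85.2 ± 23.0 FPKM (SD, n = 3 each). Of 17 collagen genes tested, edgeR called 0, with 8 at an unadjusted p under 0.05, and DESeq2 called 3, which were Col18a1, Col9a1 and Col9a3. Over all 11071 genes edgeR called 0.00903%, 0.00903% higher and 0% lower, with 1515 genes at an unadjusted p under 0.05 and 255 called by DESeq2. Log2 fold changes by edgeR were 1.76 for Col18a1 (SE 0.35), -1.86 for Col9a1 (SE 0.47), -3.04 for Col9a3 (SE 0.85) and -1.27 for Col11a1 (SE 0.40), all at an adjusted p of 0.323. Over their alternatives the adjusted p went up to 0.770 for each and down to 0.00249, 0.00365, 0.000319 and 0.0193. Without T, edgeR called 2138 of 11382 genes, and among them 8 collagen genes, 3 higher (Col18a1, Col4a5, Col6a1) and 5 lower (Col11a1, Col11a2, Col2a1, Col9a1, Col9a3). With T alone, Col12a1 and Col4a1 were called, and the 4 genes above were not.

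In normalised counts 5 of the 17 genes did not overlap between groups, Col18a1 and Col1a2 higher and Col11a1, Col9a1 and Col9a3 lower, beside 18.1% of all genes tested. The median log2 fold change was 0.17 over the collagen genes and 0.05 over all genes. It was -1.43 for 5 FACIT genes, -0.49 for 5 fibrillar genes, 1.02 for 4 basement-membrane genes and 1.72 for 2 type VI genes. P and Q held 1.99% and 2.53% mt-Rnr2 against 16.2% to 26.4% in the control libraries, and the part of this difference was not tested.

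After withdrawal by label, R and S formed the DMSO group and withdrawal libraries 1 and 2 the TRULI group, and Col6a1 was higher and Col12a1 and Col9a3 lower with TRULI. Mean levels with TRULI and DMSO were 17.5 ± 2.06 and 4.06 ± 0.295 FPKM for Col6a1, 1.24 ± 0.842 and 12.1 ± 0.378 FPKM for Col12a1, and 1.18 ± 0.0347 and 12.98 ± 1.87 FPKM for Col9a3 (SD, n = 2 each). These are 4.32-fold higher, 9.78-fold lower and 11.05-fold lower. For Col12a1 the listed length was 1488 and 2408 bases in the withdrawal libraries against 4844 and 5668 in R and S, so that its ratio in FPKM is smaller than that in counts. Of 23 collagen genes tested, 3 were called, 1 higher and 2 lower, beside 2.07% of 12242 genes, 1% higher and 1.06% lower. By edgeR the log2 fold change was 2.45 for Col6a1 (SE 0.45, adjusted p = 0.0455), -4.70 for Col12a1 (SE 0.59, adjusted p = 0.0312) and -4.003 for Col9a3 (SE 0.71, adjusted p = 0.0445). No collagen gene was called by edgeR without R or without S. The adjusted p was then 0.376 and 0.240 for Col6a1, 0.102 and 0.128 for Col12a1 and 0.241 and 0.262 for Col9a3, with the direction kept. Over all alternatives it ranged from 2.47e-06 to 0.376, 4.90e-10 to 0.210 and 4.46e-06 to 0.262. In the fit of all 10 libraries it called none of the 3 either (adjusted p = 0.178, 0.210 and 0.176). Without withdrawal library 1 it called 13 collagen genes beside 3154 of 12943 genes, and without withdrawal library 2 it called 8 beside 2389 of 13107, in fits where the lone TRULI library is assumed to vary like the DMSO libraries.

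Other genes of types II, IX and XI did not pass the threshold in this comparison. By edgeR the log2 fold changes were -1.84 for Col9a1 (adjusted p = 0.0564), -1.52 for Col11a1 (adjusted p = 0.0736), -3.33 for Col11a2 (adjusted p = 0.0924), -1.16 for Col2a1 (adjusted p = 0.172) and -1.11 for Col9a2 (adjusted p = 0.223). For each of them both TRULI libraries were below both DMSO libraries. Col16a1 had a log2 fold change of 1.11 by edgeR (adjusted p = 0.122). Over alternatives the adjusted p ranged from 0.000250 to 0.331 for Col9a1, 0.00274 to 0.413 for Col11a1, 9.95e-15 to 0.345 for Col11a2, 0.0166 to 0.802 for Col2a1 and 0.0253 to 0.648 for Col16a1. DESeq2 called 6 of 23 collagen genes beside 1467 of 12242 genes, adding Col9a1, Col11a1 and Col11a2. In normalised counts 15 of 23 genes did not overlap, 4 higher and 11 lower, beside 57.9% of all genes tested. The median log2 fold change was -0.55 over the collagen genes and 0.02 over all genes, -1.48 over 6 FACIT genes, -0.67 over 10 fibrillar genes, -0.00 over 4 basement-membrane genes and 1.97 over 2 type VI genes. The groups also differed in mt-Rnr2 (23.7% and 13.02% against 1.45% and 2.50%) and in Lfng and Slc1a3, both called lower. Krt8, alone of 4 epithelial markers, was called lower, and Myod1, the only skeletal-muscle marker tested, was called higher. These differences cannot be told apart from the treatment in this grouping.

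After withdrawal by deposited name, P and Q formed the DMSO group, and no collagen gene was called. Mean Col12a1 was 1.24 ± 0.842 FPKM with TRULI and 0.242 ± 0.342 FPKM with DMSO, and mean Col18a1 was 32.8 ± 15.9 against 30.6 ± 6.90 FPKM (SD, n = 2 each). Col12a1 and Col9a3 did not pass the filter on low counts here, so they were not tested in this comparison. Of 19 collagen genes tested, edgeR called 0, with 0 at an unadjusted p under 0.05, and DESeq2 called 0. Over all 11568 genes edgeR called 0% in either direction, 0% higher and 0% lower, with 532 at an unadjusted p under 0.05, and DESeq2 called 49. In normalised counts 3 collagen genes did not overlap, Col1a2 higher and Col20a1 and Col6a1 lower, beside 28.8% of all genes tested. For Col20a1, whose listed lengths differ, mean FPKM ran the other way (3.66 with TRULI, 2.996 with DMSO). The edgeR log2 fold change was 1.41 for Col1a2 and -0.78 for Col6a1. The median was 0.02 over the collagen genes and 0.01 over all genes, with -0.17 for 4 FACIT genes, 0.31 for 8 fibrillar, -0.49 for 4 basement-membrane and -1.13 for 2 type VI genes.

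**Figure D4:**
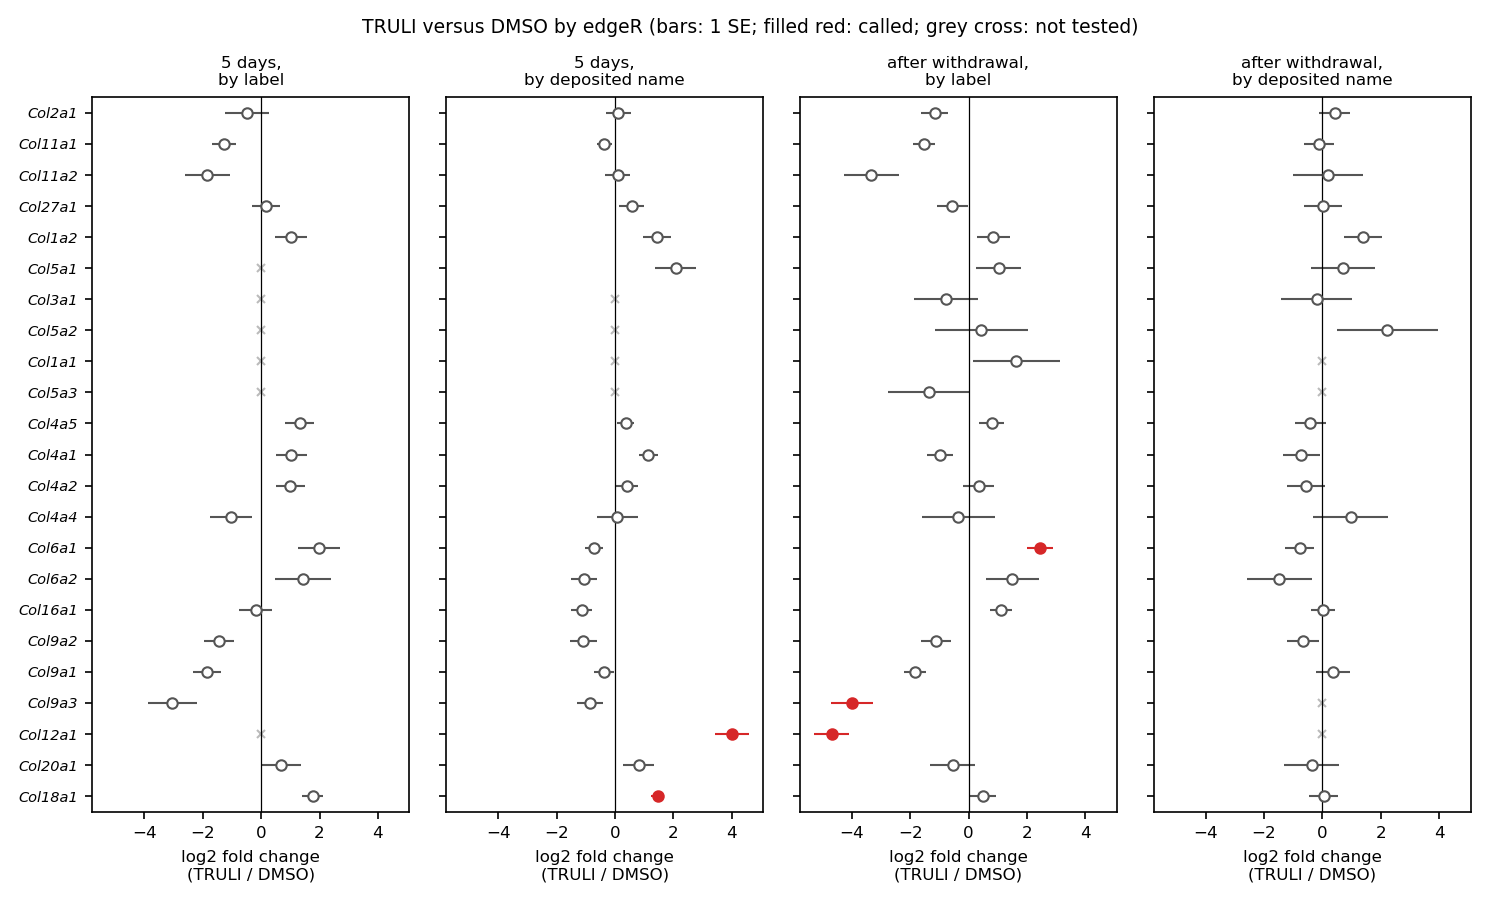
Log2 fold change of TRULI over DMSO by edgeR for the 23 collagen genes tested in at least 1 comparison (points with bars of 1 SE, filled where called, crosses where not tested), 1 panel per comparison. Col12a1 is called in opposite directions at 5 days by name (4.004) and after withdrawal by label (-4.70), since libraries R and S are in the TRULI group of the first and the DMSO group of the second.

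The comparisons by label and by name share libraries, as the plot of fold changes shows, and 16 collagen genes were tested in all 4. The difference of the TRULI effect between withdrawal and 5 days was tested as an interaction in 1 fit of all 10 libraries. By label, edgeR found 0 of 21 collagen genes at an adjusted p under 0.05 (3 at an unadjusted p under 0.05), beside 0% of 12841 genes, with 874 unadjusted. By deposited name it found 0 of 21 (3 unadjusted), beside 0% of 12841 genes, with 1217 unadjusted. DESeq2 was not run for the interaction. For Col12a1 the effect after withdrawal minus that at 5 days was -7.27 log2 by label (SE 2.34, edgeR adjusted p = 0.649) and -2.71 by name (SE 1.35, adjusted p = 0.551). For Col18a1 by name it was -1.39 (adjusted p = 0.440), and for Col4a1 by name -1.87 (adjusted p = 0.433). For Col3a1 it was -4.36 by name and -4.46 by label (edgeR adjusted p = 0.493 and 0.694), and for Col4a1 by label -1.99 (adjusted p = 0.660).

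The partners of collagens were followed in 3 lists. Laminins, nidogens, agrin and perlecan join type IV and type XVIII collagen in basement membranes, and of 14 such genes 9 were tested at 5 days by name, 3 of them called higher and 0 lower, beside 2.05% higher and 1.02% lower of all genes. Lamb3, a laminin chain of epithelial basement membranes, was measured at 0.323, 0.433 and 0.0845 FPKM in the control libraries, 13.6 in T, 6.78 and 6.004 in R and S, 0.266 and 0.145 in P and Q, and 1.53 and 1.17 in the withdrawal libraries. Agrn, which encodes agrin, was measured at 52.2, 76.5 and 87.8 FPKM in the control libraries, 271 in T, 221 and 167 in R and S, 37.4 and 53.7 in P and Q, and 65.7 and 46.7 in the withdrawal libraries. Both were high in T, R and S, the libraries high in Col12a1. By edgeR the log2 fold change was 4.83 for Lamb3 (SE 0.59, adjusted p = 0.00275), 31.3-fold between group means, and 1.55 for Agrn (SE 0.25, adjusted p = 0.0104), 3.05-fold between group means.

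Hspg2, which encodes perlecan, was at 0 in the 3 control libraries, 4.23 FPKM in T, 5.31 and 5.74 in R and S, 0.852 and 0.574 in P and Q, and 5.54 and 4.79 in the withdrawal libraries. The control libraries, at 0 counts, were the 3 lowest of the 10. P and Q held only 6 and 2 counts, so with a floor of 3 counts the control libraries cannot all be placed below them. Hspg2 counts in T, R and S were 17, 24 and 16. As a share of protein-coding counts Hspg2 was at least 5.11-fold higher with TRULI than a floor of 3 counts in each control library (edgeR adjusted p = 0.0132). Lamb3 was called with any 1 library left out (adjusted p 2.94e-15 to 0.0301 over all alternatives), Agrn not without control library 2 (adjusted p = 0.0731), and Hspg2 not without control library 2, control library 3 or R (0.0800, 0.0630 and 0.0637) nor with T as the single TRULI library (0.146). Over all alternatives the range was 4.93e-07 to 0.0731 for Agrn and 5.36e-05 to 0.146 for Hspg2.

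By label and after withdrawal by name, edgeR called 0 of the 6, 9 and 8 basement-membrane partners tested (5 days by label, withdrawal by label, withdrawal by name), with 2, 4 and 3 at an unadjusted p under 0.05. Among all genes, 1515 of 11071, 3001 of 12242 and 532 of 11568 were at such a p. DESeq2 called 0, 1 (Agrn) and 0, beside 255, 1467 and 49 of all genes. Their median log2 fold change was 1.25 at 5 days by name, 0.03 by label, -0.64 after withdrawal by label and 1.27 by name. Their summed level was 271, 202 and 251 FPKM in the control libraries, 467 in T, 379.8 and 401 in R and S, 229 and 237 in P and Q, and 275 and 259 in the withdrawal libraries. T, R and S were the highest.

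Of 36 genes of collagen biosynthesis (hydroxylases, chaperones, processing proteases and cross-linking oxidases), 28, 30, 32 and 30 were tested at 5 days by label, 5 days by name, withdrawal by label and withdrawal by name. Calls by edgeR were made after withdrawal by label alone, Loxl1 higher and P3h3 lower, 2 of 32 beside 2.07% of all genes. P3h3, a member of the prolyl 3-hydroxylase family, was measured at 13.5, 14.5 and 17.0 FPKM in the control libraries, 15.2 in T, 10.9 and 12.9 in R and S, 2.42 and 0.515 in P and Q, and 1.41 and 0.453 in the withdrawal libraries. Loxl1, a cross-linking oxidase, was measured at 25.8, 14.2 and 25.0 FPKM in the control libraries, 28.0 in T, 9.37 and 16.8 in R and S, 49.9 and 70.5 in P and Q, and 50.9 and 69.5 in the withdrawal libraries. P3h3 was low and Loxl1 high in the 4 libraries low in mt-Rnr2. By edgeR the log2 fold change was -3.74 for P3h3 (SE 0.73, adjusted p = 0.0497) and 2.53 for Loxl1 (SE 0.48, adjusted p = 0.0463), and neither was called without R or without S (adjusted p = 0.271 and 0.296 for P3h3, 0.322 and 0.130 for Loxl1, over alternatives 2.29e-06 to 0.296 and 1.57e-08 to 0.322). In the fit of all 10 libraries neither was called (adjusted p = 0.177 and 0.176), and with DESeq2's size factors the adjusted p of P3h3 was 0.0501. In the other 3 comparisons edgeR called 0 of this list, with 5, 4 and 2 at an unadjusted p under 0.05 (5 days by label, 5 days by name, withdrawal by name). Among all genes, 1515 of 11071, 1887 of 11529 and 532 of 11568 were at such a p. After withdrawal by label DESeq2 called 6 of the 32, Loxl1 and P3h3 among them, beside 1467 of 12242 genes. In the other 3 comparisons it called 1 (Pcolce2), 3 (Creb3l1, Loxl2, P4ha3) and 0, beside 255, 583 and 49 of all genes. The blocked fit at 5 days by name called the same 3, beside 698 of all genes. Median log2 fold changes were 0.04, -0.03, -0.25 and -0.20 in the order of the counts tested. The most abundant gene was Sparc, a collagen-binding glycoprotein, at a mean of 3074 FPKM.

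Of 10 collagen receptors, 3, 4, 4 and 3 were tested in the same order and edgeR called 0 in each, with 0, 1, 1 and 0 at an unadjusted p under 0.05. Among all genes, 1515 of 11071, 1887 of 11529, 3001 of 12242 and 532 of 11568 were at such a p. DESeq2 called 0, 0, 1 (Lair1) and 0, beside 255, 583, 1467 and 49 of all genes. Their most abundant gene was Itgb1, the integrin beta chain, at 116 FPKM, followed by the receptor kinase Ddr1 at 48.2 FPKM. Their median log2 fold changes were 0.76, 0.81, -0.11 and 0.06.

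Markers of other cells were summed in each library, in the order control 1 to 3, T, R, S, P, Q and withdrawal 1 and 2. The 4 epithelial markers, Epcam highest, summed to 3638, 4533, 3810.1, 2194, 2759, 2827, 2734, 2572, 2619 and 2783 FPKM. Epcam was called lower at 5 days by name, where the other 3 were higher with TRULI without overlap but not called, and the list median log2 fold change was 0.63. Of these 3, Krt8 and Krt18 missed the call by the size of their fold change alone. Krt8 was called lower after withdrawal by label. The 7 hair-cell markers, Myo6 highest, summed to 269, 114, 118, 363, 264, 102, 67.4, 49.0, 294 and 84.9 FPKM. None of them was called by edgeR in any comparison. At 5 days by label and by name and after withdrawal by label and by name, 0, 5, 1 and 4 had an unadjusted edgeR p under 0.05. So did 1515 of 11071, 1887 of 11529, 3001 of 12242 and 532 of 11568 genes tested. In that order DESeq2 called 0, 5, 0 and 2, beside 255, 583, 1467 and 49 of all genes tested, and the blocked fit at 5 days by name called 4 (Gfi1, Myo7a, Pou4f3, Tmc1) beside 698 of all genes, while that after withdrawal by label called 1 (Gfi1, lower) beside 1269. After withdrawal by name 4 of the 5 hair-cell markers tested did not overlap between groups in normalised counts, all higher with TRULI, beside 28.8% of all genes, and by label 2 of 7 did not, 1 higher and 1 lower, beside 57.9% of all genes. Of the supporting-cell markers, DESeq2 and the blocked fits called 1 at 5 days by name and 1 beyond Lfng and Slc1a3 after withdrawal by label, both lower, which edgeR without a block did not.

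Of the 13 mesenchymal markers, Postn alone was called by edgeR and by DESeq2, higher at 5 days by name. Only 1, 2, 3 and 3 of the 13 passed the filter and were tested, at 5 days by label and by name and after withdrawal by label and by name. The 6 endothelial markers, Pecam1 highest and Cldn5, Emcn and Tie1 at 0, summed to at most 1.21 FPKM in any library. The 5 pericyte markers summed to 10.97 to 43.2 FPKM, with Notch3 at a mean of 17.0 and Kcnj8 at 5.60 FPKM, while Rgs5, Cspg4 and Abcc9 stayed below 0.3 FPKM. The 4 Schwann-cell markers, Mbp highest, summed to 16.4 to 40.8 FPKM. The 5 immune markers, Cd68 highest and C1qa at 0, summed to 0.964 to 30.4 FPKM, and the 4 melanocyte markers, Pmel highest and Tyr at 0, to 1.98 to 10.6 FPKM. DESeq2 called Cd68 at 5 days by name and Notch3 after withdrawal by label, as did the blocked fits, and edgeR without a block called neither.

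Among 5 skeletal-muscle markers Myog and Tnnt3 were at 0 in every library and 2 others had at most 5 counts, none of them in P, Q or the withdrawal libraries. Myod1 was measured at 0.305, 0 and 0 FPKM in the control libraries, 0.218 in T, 0 and 0 in R and S, 22.4 and 51.3 in P and Q, and 9.80 and 29.2 in the withdrawal libraries. Myod1 was thus confined, at more than 1 count, to the 4 libraries low in mt-Rnr2 and in types II, IX and XI, and it was called higher after withdrawal by label, at least 33.8-fold over a floor of 3 counts in each DMSO library. The part of any of these cells in the collagen levels was not tested.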

How the data were processed

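RNA was measured in 10 libraries of sorted utricular supporting cells. The authors mapped reads to GRCm38/mm10 with STAR, and the values are the expected counts per gene deposited for each library, with gene and effective lengths (the counting program is not stated). The labels name polyA selection and a TruSeq kit and the paper a single-cell RNA kit. Genes were matched to GENCODE M21 (48349 of 48709). Expected counts were rounded to whole numbers, filtered by filterByExpr, scaled by TMM and tested with edgeR 4.0.16 (quasi-likelihood, R 4.3.3), with Benjamini-Hochberg adjustment over all genes tested. FPKM used effective lengths and the protein-coding total. The pipeline was tested on simulated data. Pairing of replicate numbers was checked from correlations of deviations from group means: at 5 days by name every same-number pair was at 0.192 or above (mean 0.296, other pairs -0.148), so the blocked result stands beside that comparison. Deviations within a group sum to 0, so the value for other pairs largely follows from that for same-number pairs. No libraries within a group, by label or by name, were copies of each other, the lowest chi-square per degree of freedom between replicates being 15.3. Named genes were collagens called in any comparison, the top 2 of each class by mean FPKM, Col1a1, Col1a2, Col3a1, type IV, and called members of 3 partner lists, from which 1 item is left out and not reported here. Other collagens described, Col9a1 and Col11a2 among them, were chosen after the values were seen. Marker lists for 11 cell types came from general knowledge. The members and lists were chosen with earlier results of these data known. Alternatives were DESeq2 1.42.0, its size factors, no filter, all libraries in 1 fit, a replicate block, adjusted p alone, each library left out, TMM-scaled FPKM and, chosen after seeing the data, the longest coding transcript length, collagen shares without Col16a1 and, for single fold changes, only the libraries on which label and name agree, which was planned for counts of calls. Totals of 2463872 to 6255149 counts set the precision, and floors cover counting error only.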

Additional observations from a re-analysis of the deposited data

How the results depend on the processing

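Counts of called collagen genes under the main settings were 0 at 5 days by label, 3 after withdrawal by label, 2 at 5 days by name and 0 after withdrawal by name, beside 1, 253, 354 and 0 of all genes. In the same order they were 3, 6, 4 and 0 with DESeq2 (all genes 255, 1467, 583 and 49), 6, 6, 7 and 0 with no filter on low counts (646, 1751, 902 and 197), 0, 0, 1 and 0 in 1 fit of all 10 libraries (2, 0, 109 and 0), and 0, 6, 6 and 0 with a replicate block (0, 1269, 698 and 0). The block added Col9a1, Col11a1 and Col11a2 after withdrawal by label. There, with 2 libraries a group, the same-number pairs share 1 correlation, 0.203, and the other pairs hold its negative, so this is a single value. DESeq2's size factors and the adjusted p alone left 0, 3, 2 and 0 (1, 251, 362 and 0, and 1, 253, 378 and 0). With only the libraries on which label and name agree, 2 were called at 5 days beside 134 of all genes, where the single TRULI library is assumed to vary like the others. Leaving out 1 library at a time gave 0 to 8, 0 to 13, 0 to 3 and 0 to 0, beside 0 to 2138, 8 to 3154, 54 to 386 and 0 to 4 of all genes. The causes were not tested. No change of direction was seen in 26 fold changes under 276 alternatives, of which 212 kept their side of the threshold, 25 lost and 39 gained a call. Genes with a mean of at least 1 FPKM were 21, 19 with TMM-scaled sizes and 18 with the longest coding transcript, a length chosen after the data were seen, which took means from 149 to 19.7 FPKM for Col16a1, 13.5 to 6.85 for Col4a5, 8.29 to 2.87 for Col27a1, 4.30 to 1.79 for Col12a1, 3.31 to 1.25 for Col20a1, 1.54 to 0.745 for Col5a1, 1.11 to 0.0805 for Col7a1 and 1.08 to 0.320 for Col3a1. Leaving Col16a1 out of the total, also chosen after the data were seen, took the share of types II, IX and XI from 28.5% to 47.0% in P, 16.2% to 35.8% in Q, 28.4% to 53.7% in withdrawal library 1 and 16.4% to 34.5% in withdrawal library 2. After withdrawal every DMSO library has a label that differs from its name, so no such fit was possible. With 2 or 3 libraries a group and 23 collagen genes below 1 FPKM, depth and replication may limit what could be detected, which was not tested.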
